A study of Mus musculus with 30 samples.

Results

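Messenger RNA of the mitogen-activated protein (MAP) kinase cascade was measured in mouse left ventricle. The genes were those whose symbol in the platform's probe annotation begins with Mapk, Map2k, Map3k, Map4k or Dusp, which gave 40 of the 8251 genes on the array. They comprised 8 MAP kinases, 6 MAP2 kinases, 12 MAP3 or MAP4 kinases, 5 scaffold proteins or substrate kinases and 9 dual-specificity phosphatases. For the 17 genes with several probe sets, the brightest one on average represented the gene, and the other 23 genes had 1 probe set.

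MAP kinase cascades are relays of protein kinases. A MAP3 kinase phosphorylates a MAP2 kinase, which phosphorylates a MAP kinase, and the MAP kinase then acts on transcription factors and on further kinases. Growth factors act mainly through the ERK branch, while stretch, oxidants and cytokines act mainly through the JNK and p38 branches, and all are studied in the enlargement of heart muscle. Dual-specificity phosphatases remove the activating phosphates and so end the signal, and several of them are transcribed in response to it. The arrays measured transcripts, not phosphorylation or kinase activity.

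The study crossed genotype, diet and sex in C57BL/6 mice whose hearts were taken at 2 months of age, with RNA of 2 animals pooled for each of 30 Affymetrix MG_U74Av2 arrays. Mice were wild type or HCM, the usual short form of hypertrophic cardiomyopathy. The labels neither spell out the abbreviation nor name the mutation or the promoter behind it. Food was soy-based or casein-based. Each sex had 4 arrays of wild type on soy, 4 of wild type on casein and 4 of HCM on casein, but 3 of HCM on soy. Joined over sex, this made 8 wild-type arrays on soy, 6 HCM arrays on soy, 8 wild-type arrays on casein and 8 HCM arrays on casein. Values are log2 expression, so a difference of 1 is a doubling. Errors of differences are standard errors from the limma model, and a gene passed the test at a Benjamini-Hochberg adjusted p under 0.05 over all 8251 genes (two-sided). These p-values measure the spread between pooled samples, and the number of arrays limits their precision. In ventricle as a whole, fewer cells of a type and less RNA per cell cannot be told apart.

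Array medians lay between 6.108 and 6.224. Male soy wild-type replicate 2 stood apart, with a mean correlation of 0.9616 with the arrays of its own group against 0.9833 for the next lowest array. Its values were the lowest of all soy wild-type arrays for Map3k1, Mapk8, Mapk14, Mapk6, Dusp1 and Dusp6 and the highest for Mapk13 and Map2k2. The control RNAs also differed between arrays. The Dap control averaged 8.69 (8.22 to 9.1) on the casein HCM arrays and 4.42 (4.17 to 5.02) on the 22 others. The hybridization controls split the casein wild-type arrays into set A (replicates 1 and 2 of each sex, BioD minus BioC of 1.01 to 1.19) and set B (replicates 3 and 4, -0.858 to -0.657). On soy, BioD minus BioC was 0.894 to 1.13 in HCM and -0.23 to 0.369 in wild type, without overlap. The array sets were thus A, B, casein HCM, soy HCM and soy wild type. Differences between genotypes or diets, on soy as on casein, therefore cannot be told apart from differences between these array sets. Cardiomyocyte markers were high on all arrays (mean level of the 7 of 8 measured markers from 11.70 to 12.64), as the tissue label states.

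The first question was whether the cascade differed between HCM and wild-type ventricle whatever the diet. Averaged over both diets and both sexes, 9 of 40 cascade genes passed the test (22.5%), beside 34.1% of all genes tested. In HCM 3 of them were higher, beside 18.7% of all genes, and 6 lower, beside 15.4%. The typical change in this average was small: the median size was 0.0379 for the cascade genes and 0.0905 for all genes. Effects of opposite sign on the 2 diets cancel in it. On soy the median size was 0.135 (0.118 for all genes), and on casein 0.19 (0.164 for all genes). Dusp6, the phosphatase that acts on ERK, was higher by 0.32 ± 0.10 (adjusted p = 0.0185). Map2k1, the ERK-activating kinase also called MEK1, was higher by 0.14 ± 0.05, and the RNA-directed phosphatase Dusp11 was higher by 0.14 ± 0.05. Lower were the blood-cell kinase Map4k1 (by 0.28 ± 0.04), Map2k5, which activates the large MAP kinase ERK5 (by 0.26 ± 0.04), the JNK scaffold Mapk8ip3 (by 0.22 ± 0.04), the p38 kinase Mapk14 (by 0.20 ± 0.07), and the MAP3 kinases Map3k5 (by 0.17 ± 0.04) and Map3k8 (by 0.17 ± 0.06). Of all these genes, higher or lower, only Map2k5 also passed on soy alone. There Mapk14, Map3k5, Mapk8ip3 and Dusp11 differed by 0.10, 0.05, 0.04 and -0.02. The call of Map3k8 was lost without any 1 of 10 arrays and under 2 other settings (adjusted p from 0.0524 to 0.251). When the array set entered as a random block, Map4k1, Map2k5 and Mapk8ip3 passed (3 genes), and adding quantile normalization gave 2 higher and 8 lower.

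Taken on each diet, the effect of HCM differed in sign for many cascade genes. On soy, 13 of 40 genes passed (32.5%, beside 25% of all genes): 8 were higher in HCM (beside 12.3%) and 5 lower (beside 12.7%). On casein, 24 of 40 passed (60%, beside 49.6%), with 10 higher (beside 26.9%) and 14 lower (beside 22.7%). The difference between diets, taken as the effect of HCM on casein less its effect on soy, passed for 24 of 40 genes (60%, beside 45.1%). It was positive for 9 (beside 25%) and negative for 15 (beside 20.1%), with a median size of 0.286 against 0.22 over all genes. Fitted effects of any size were positive on soy and negative on casein for 19 of 40 genes and the reverse for 13, while over all 8251 genes the counts were 2113 and 2503. Without male soy wild-type replicate 2, 10 genes passed on soy, 27 on casein and 27 for the difference between diets, 23 of them among the 24. The count on soy was 8 without male soy HCM replicate 2 or female soy HCM replicate 3. When the array set entered as a random block the counts were 1, 12 and 13, and all 13 were among the 24. Shares of all genes under this setting are not given here, so the fall is not read as particular to the cascade. The 1 gene on soy was Map3k1 (adjusted p = 0.0374). The 12 on casein were Map3k1, Map3k5, Map3k6, Map4k1, Map2k5, Mapk13, Mapk14, Mapk8ip1, Mapk8ip3, Dusp8, Dusp11 and Dusp19.

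For genes listed as markers of atrial muscle the HCM effect also differed between diets. It did so positively for 3 of 4 (beside 25% of all genes) and negatively for 0 (beside 20.1%). Myl7, the atrial myosin light chain, differed in HCM by -1.32 ± 0.37 on soy (adjusted p = 0.00968) and by 1.58 ± 0.34 on casein (adjusted p = 0.000336). Of the 4 atrial markers measured (Myl7, Myl4, Nppa and Sln), 0 were higher in HCM on soy (beside 12.3% of all genes) and 2 lower (beside 12.7%). On casein 3 were higher (beside 26.9%) and 0 lower (beside 22.7%). Their mean level was 7.47 to 8.01 in soy wild type, 7.17 to 7.70 in soy HCM, 6.82 to 7.65 in casein wild type and 7.51 to 8.58 in casein HCM. Whether these levels stand for atrial tissue in the samples was not tested, nor was their part in the cascade differences.

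**Figure D1:**
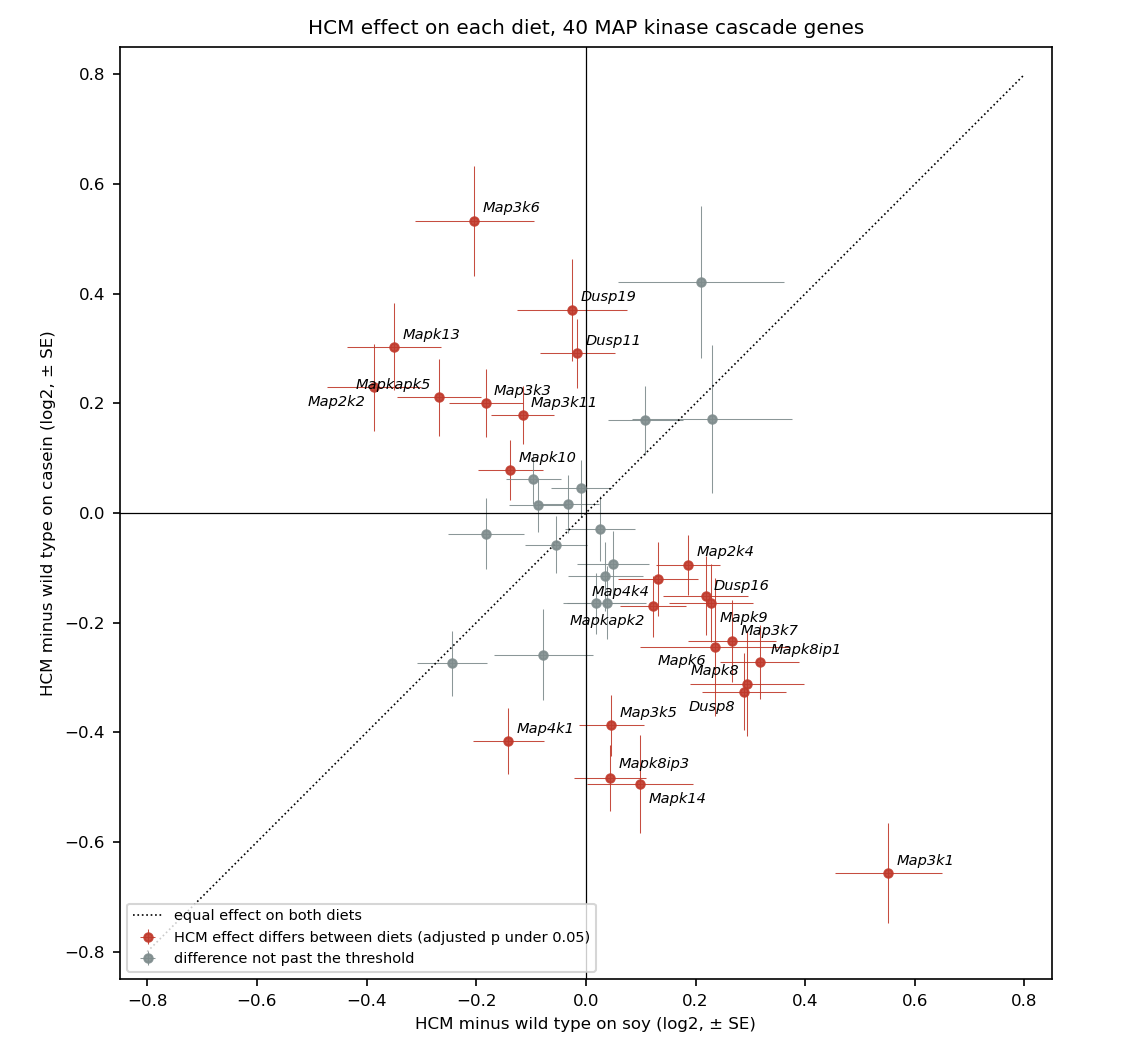
HCM effect (HCM minus wild type, log2, mean over sexes, ± SE) on soy (horizontal axis) against that on casein (vertical axis), 1 point for each of the 40 cascade genes. The 24 red, named genes are those whose effect differed between diets; they lie away from the dotted line of equal effects, with Map3k1 at 0.55 on soy and -0.66 on casein.

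Of the 10 genes that passed on both diets, 9 had opposite signs, as did 827 of the 1140 genes of the whole array that passed on both (72.5%). By the probe sets that stand for the genes, Map3k1, Map3k7, Mapk8, Mapk8ip1 and Dusp8 were higher in HCM on soy and lower in HCM on casein. Mapk13, Map2k2, Mapkapk5 and Map3k3 were lower on soy and higher on casein. Map2k5 was lower on both, by 0.24 ± 0.06 on soy and 0.27 ± 0.06 on casein. Without male soy wild-type replicate 2, Mapk8 (adjusted p = 0.0765), Map3k3 (0.0644) and Dusp16 (0.0836) no longer passed on soy, and Mapk9 joined the genes that passed on both diets with opposite signs (5 higher on soy, 3 lower).

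**Figure D2:**
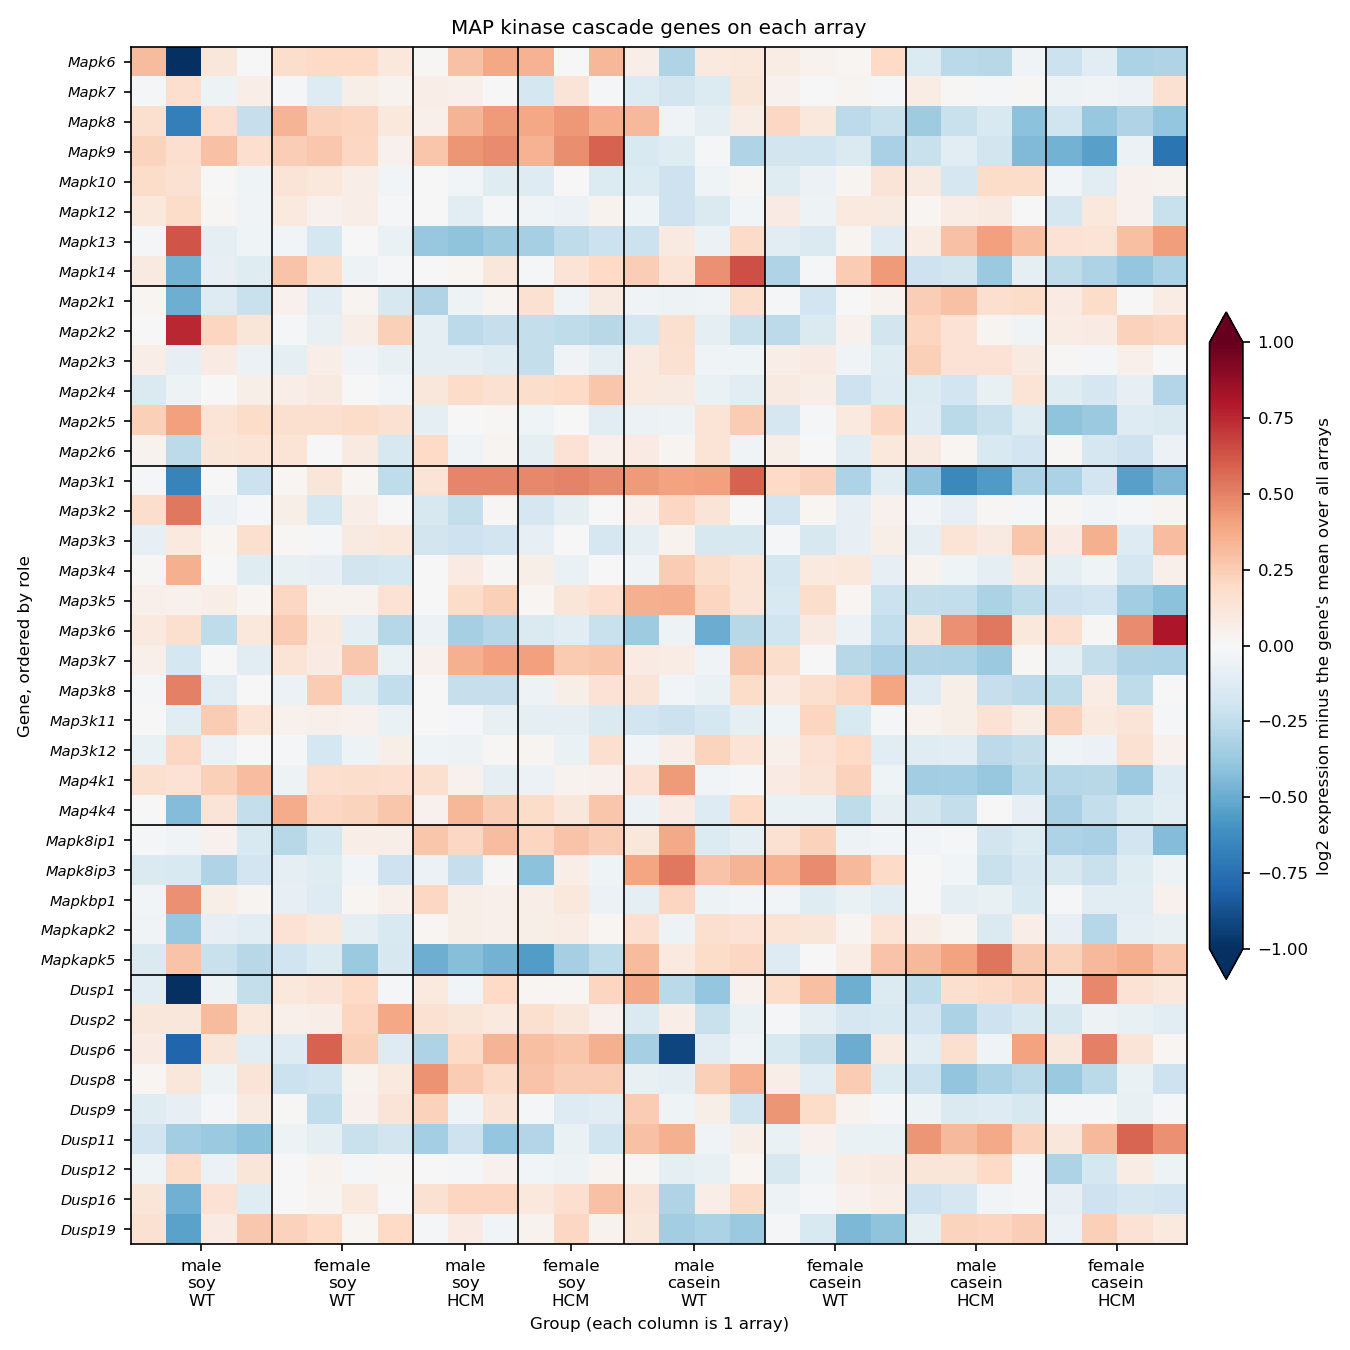
Log2 expression of the 40 cascade genes (rows, ordered by role) on the 30 arrays (columns, by group), minus the mean of the gene over all arrays; the colour scale ends at 1 above and below that mean. Map3k1 and Mapk8 are mostly red on soy HCM arrays and blue on casein HCM arrays, Mapk13 and Map2k2 show the reverse, and male soy wild-type replicate 2, in the second column, differs from its group in many rows.

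At the top of the cascade, Map3k1 (MEKK1, which feeds the JNK branch) showed the largest contrast. Its level ranged from 5.99 to 6.78 (median 6.65) in soy wild type and from 6.79 to 7.15 (median 7.14) in soy HCM. On casein it ranged from 6.35 to 7.25 (median 6.97) in wild type and from 6.01 to 6.47 (median 6.24) in HCM. All HCM arrays thus lay above all wild-type arrays on soy, while on casein 1 wild-type array, female replicate 3, lay inside the HCM range. HCM differed from wild type by 0.55 ± 0.10 on soy (adjusted p = 0.000226) and by -0.66 ± 0.09 on casein (adjusted p = 9.7e-07), and the 2 effects differed by -1.21 ± 0.13 (adjusted p = 4.93e-08). Without male soy wild-type replicate 2 the effect on soy was 0.48 (adjusted p = 0.000198). The other Map3k1 probe sets gave 0.481 and -0.069 on soy, of which the first passed. On casein they gave -0.0932 and 0.383, of which the last passed.

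Map3k6 and Map3k5 (ASK2 and ASK1) respond to oxidants and stress and lead to JNK and p38. Map3k6 ranged from 6.49 to 7.03 (median 6.87) in soy wild type and from 6.44 to 6.71 (median 6.58) in soy HCM. On casein it ranged from 6.27 to 6.86 (median 6.55) in wild type and from 6.78 to 7.58 (median 7.08) in HCM. The HCM arrays were the higher ones on casein, with slight overlap, and the ranges overlapped on soy. The effect was 0.53 ± 0.10 on casein (adjusted p = 7e-05) and -0.20 ± 0.11 on soy, which did not pass (adjusted p = 0.166). Map3k5 moved the other way on casein: its level was 5.88 to 6.10 (median 6.04) in HCM against 6.08 to 6.65 (median 6.44) in wild type, a difference of -0.39 ± 0.06 (adjusted p = 1.65e-06). On soy Map3k5 differed by 0.05 ± 0.06 (adjusted p = 0.597).

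Map4k1 (HPK1), a kinase best known from blood cells, was lower in HCM on casein by 0.42 ± 0.06 (adjusted p = 1.92e-06). Its 8 HCM arrays (5.88 to 6.12, median 5.94) all lay below the 8 wild-type arrays (6.21 to 6.68, median 6.36). On soy the ranges overlapped and the difference was -0.14 ± 0.06 (adjusted p = 0.107). Beside Map4k1, lymphocyte markers (6 of 8 measured) averaged 6.19 to 6.45 on casein HCM arrays and 6.15 to 6.38 on casein wild-type arrays. Single markers moved apart. In HCM on casein Cd3e was lower (-0.247, adjusted p = 0.000875). Ptprc (0.235, 0.0268) and Cd2 (0.18, 0.0199) were higher, and Cd4, Cd8a and Cd79a did not pass. The part of these markers in the Map4k1 difference was not tested.

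The remaining MAP3 and MAP4 kinases divided. Map3k7 (TAK1, which relays inflammatory and TGF-beta signals) was higher in HCM on soy by 0.27 ± 0.08 and lower on casein by 0.23 ± 0.07. Its other, dimmer probe set passed in the opposite direction on soy (-0.155, adjusted p = 0.0314 over all probe sets). Map3k3 (MEKK3, upstream of ERK5 and p38) was lower on soy by 0.18 ± 0.07 and higher on casein by 0.20 ± 0.06. Map3k11 (a mixed-lineage kinase upstream of JNK) was higher on casein by 0.18 ± 0.05. Map3k8 (lower by 0.26 ± 0.08) and Map3k12 (lower by 0.16 ± 0.06) also passed on casein. By the probe sets that stand for the genes, Map3k2, Map3k4 and Map4k4 passed on neither diet. The other Map3k4 probe set gave -0.242 in HCM averaged over diets (adjusted p = 0.000649 over all probe sets) and 0.121 on soy (0.243). The effect of HCM on Map4k4 differed between diets by -0.25 ± 0.10 (adjusted p = 0.0414, but 0.0604 without male soy wild-type replicate 2).

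Of the MAP2 kinases, Map2k2 (MEK2, which activates ERK) gave the clearest contrast. Its level was 6.21 to 7.04 (median 6.38) in soy wild type and 6.01 to 6.20 (median 6.04) in soy HCM. On casein it was 6.03 to 6.44 (median 6.13) in wild type and 6.25 to 6.52 (median 6.40) in HCM. On soy every HCM array lay below every wild-type array, and on casein the HCM arrays were mostly the higher ones. The HCM effect was -0.39 ± 0.09 on soy (adjusted p = 0.00185) and 0.23 ± 0.08 on casein (adjusted p = 0.018). The effect on soy was -0.31 (adjusted p = 0.00134) without male soy wild-type replicate 2, which had the highest Map2k2 level. The random block for the array set ended both calls (adjusted p = 0.102 on soy and 0.144 on casein), and against set A or set B alone, the sets of casein wild-type arrays described above, the effect on casein did not pass (0.0701 and 0.0511).

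Map2k1, the partner of Map2k2, did not share this contrast. It was 6.00 to 6.54 (median 6.37) in soy wild type, 6.19 to 6.65 (median 6.49) in soy HCM, 6.30 to 6.67 (median 6.47) in casein wild type and 6.50 to 6.78 (median 6.67) in casein HCM. The ranges overlapped on both diets. The HCM effect was 0.11 ± 0.07 on soy (adjusted p = 0.244) and 0.17 ± 0.06 on casein (adjusted p = 0.0266), and the 2 effects differed by 0.06 ± 0.09 (adjusted p = 0.625). The Map2k1 call on casein was lost without any 1 of 3 arrays and under 4 other settings (adjusted p from 0.0517 to 0.257).

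Map2k4 (MKK4, which activates JNK) was 6.14 to 6.38 in soy wild type and 6.40 to 6.57 in soy HCM, with no overlap, a difference of 0.19 ± 0.06 (adjusted p = 0.0224). That call was lost without male soy HCM replicate 2 (adjusted p = 0.053) or female soy HCM replicate 3 (0.0618) and with the random block (0.233). On casein it differed by -0.09 ± 0.05 (adjusted p = 0.155). Map2k3 and Map2k6, which activate p38, passed on neither diet. Their HCM effects were -0.10 ± 0.05 and 0.04 ± 0.07 on soy, and 0.06 ± 0.05 and -0.11 ± 0.06 on casein. Map2k5 was 6.86 to 7.14 (median 6.90) in soy wild type and 6.61 to 6.74 (median 6.70) in soy HCM. Map2k5 on casein was 6.55 to 6.98 (median 6.76) in wild type and 6.32 to 6.60 (median 6.54) in HCM. HCM arrays were thus the lower ones on both diets, without overlap on soy, and the 2 effects differed by -0.03 ± 0.09 (adjusted p = 0.806). With the random block Map2k5 passed on casein (adjusted p = 0.0111) and not on soy (0.132).

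**Figure D3:**
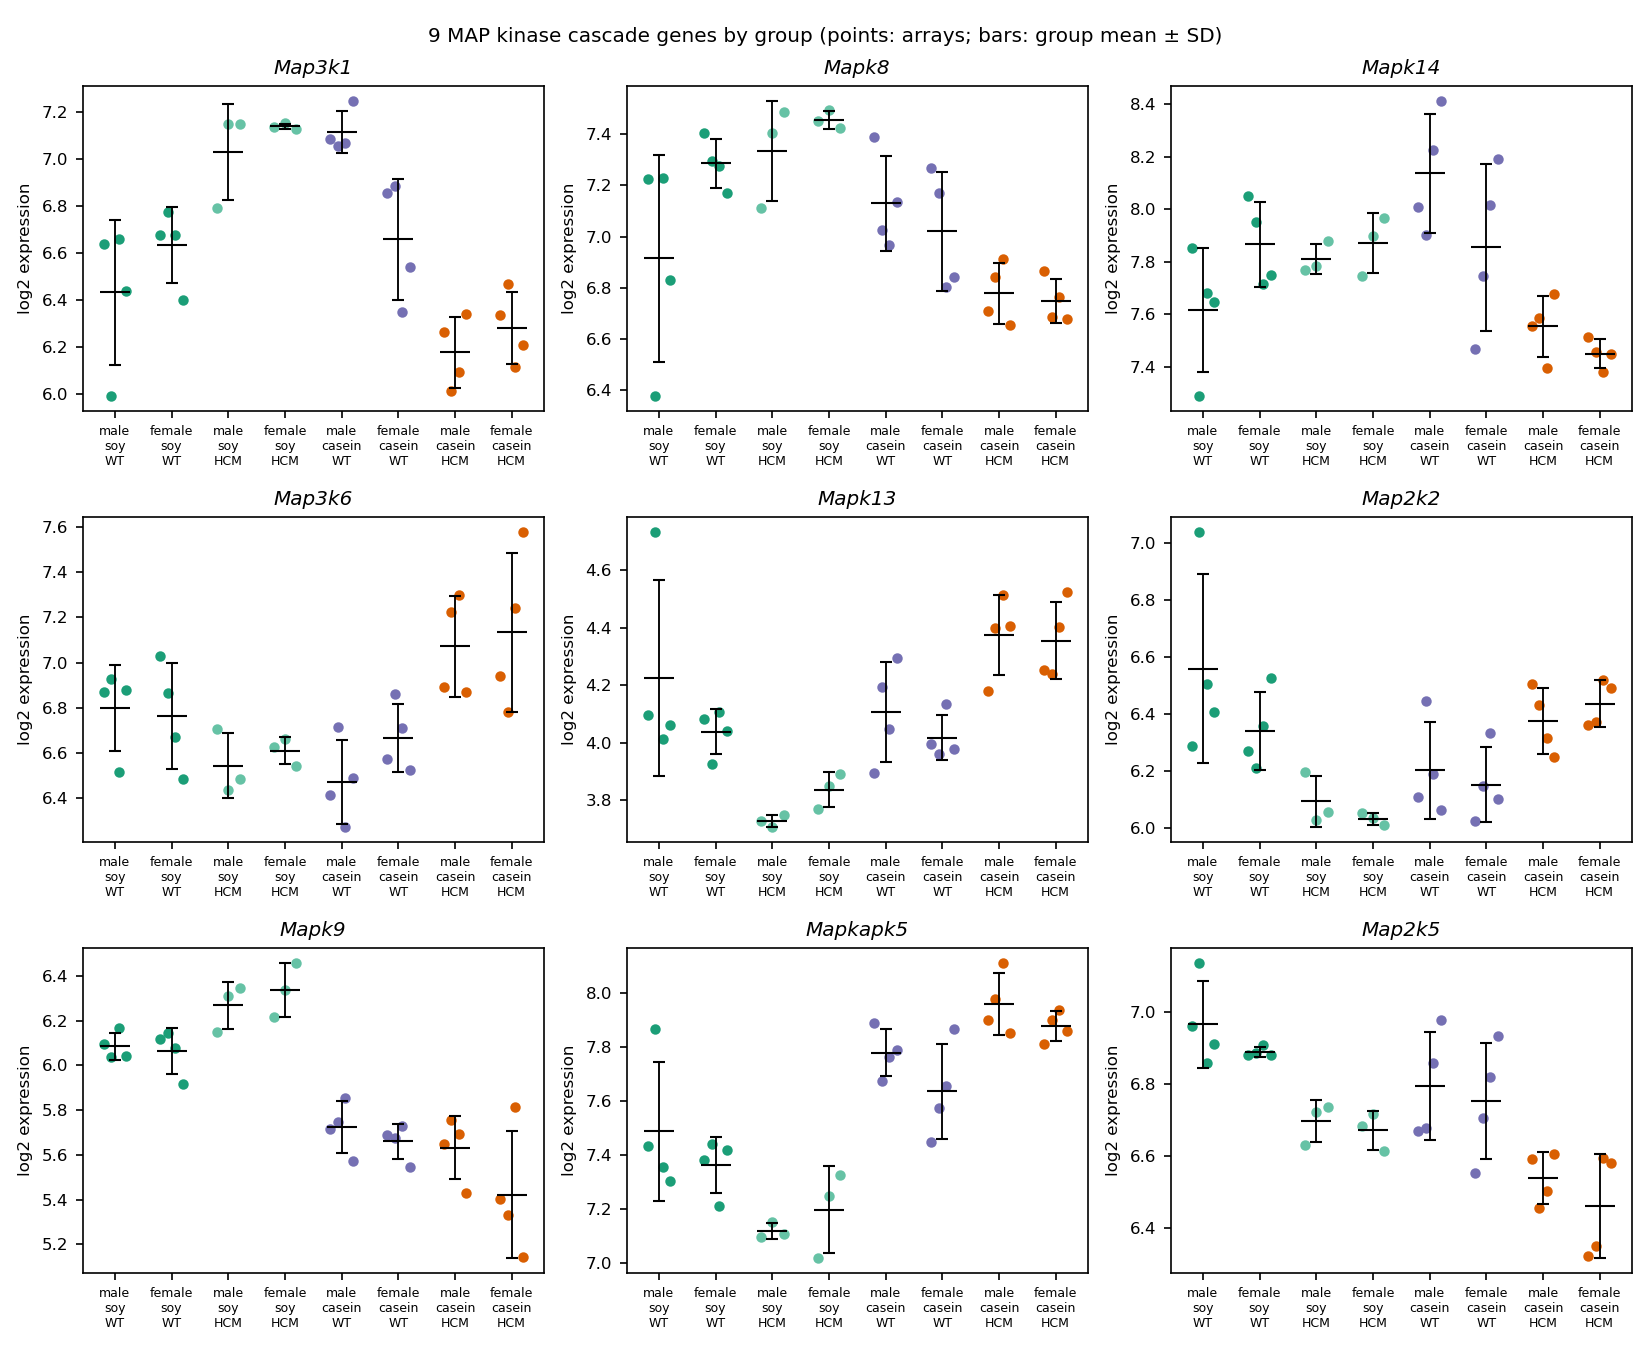
Log2 expression of 9 cascade genes on every array (points) in the 8 groups, with the group mean and SD (bars); each panel has its own vertical scale. For Map3k1 the soy HCM arrays (6.79 to 7.15) lie above the soy wild-type arrays and the casein HCM arrays (6.01 to 6.47) below nearly all casein wild-type arrays; for Map2k5 the HCM arrays are lower on both diets.

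Among the MAP kinases themselves, the HCM effect was lower on casein than on soy for the JNK kinases Mapk8 (JNK1) and Mapk9 (JNK2) and higher for Mapk10 (JNK3, mainly neuronal). Mapk8 was 6.38 to 7.40 (median 7.23) in soy wild type and 7.11 to 7.49 (median 7.44) in soy HCM. On casein it was 6.80 to 7.39 (median 7.08) in wild type and 6.65 to 6.91 (median 6.74) in HCM. The ranges overlapped on both diets. The HCM effect was 0.29 ± 0.10 on soy (adjusted p = 0.0379) and -0.31 ± 0.10 on casein (adjusted p = 0.00849), and the 2 differed by -0.61 ± 0.14 (adjusted p = 0.000978). The call on soy was close to the threshold: it was lost without any 1 of 9 arrays (male soy wild-type replicate 2 among them, 0.21, adjusted p = 0.0765) and under 3 other settings, with adjusted p from 0.0554 to 0.307. The highest of these came from the random block for the array set, which also ended the call on casein (adjusted p = 0.0883).

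Mapk9 was 5.92 to 6.17 (median 6.09) in soy wild type, 6.15 to 6.46 (median 6.32) in soy HCM, 5.55 to 5.86 (median 5.70) in casein wild type and 5.14 to 5.81 (median 5.54) in casein HCM. HCM arrays were mostly higher on soy, and all casein arrays lay below all soy arrays. The HCM effect was 0.23 ± 0.08 on soy (adjusted p = 0.0297) and -0.16 ± 0.07 on casein (adjusted p = 0.0543), and the difference of -0.39 ± 0.10 passed (adjusted p = 0.00303). The Mapk9 call on soy was lost without any 1 of 5 arrays and with the random block (adjusted p from 0.0509 to 0.299), and the random block also ended that of the difference (0.0702). Mapk10 differed by -0.14 ± 0.06 on soy and 0.08 ± 0.06 on casein, of which neither passed, while the difference between diets did (0.22 ± 0.08, adjusted p = 0.0317). That last call was lost without any 1 of 7 arrays and under 5 other settings, the random block among them (adjusted p from 0.0525 to 0.217).

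The 3 p38 kinases measured did not move together. Mapk14 (p38 alpha, the main p38 of heart muscle) was 7.29 to 8.05 (median 7.73) in soy wild type, 7.75 to 7.97 (median 7.83) in soy HCM, 7.47 to 8.41 (median 8.01) in casein wild type and 7.38 to 7.68 (median 7.49) in casein HCM. The casein HCM arrays had the lowest median and overlapped both wild-type groups, and the casein wild-type arrays were the most spread. Mapk14 was lower in HCM on casein by 0.49 ± 0.09 (adjusted p = 4.36e-05) and differed by 0.10 ± 0.10 on soy (adjusted p = 0.474).

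Mapk13 (p38 delta) was 3.93 to 4.74 (median 4.07) in soy wild type and 3.71 to 3.89 (median 3.76) in soy HCM. On casein it was 3.89 to 4.29 (median 4.02) in wild type and 4.18 to 4.52 (median 4.40) in HCM. The soy HCM arrays all lay below the soy wild-type arrays. Mapk13 differed in HCM by -0.35 ± 0.09 on soy (adjusted p = 0.00395) and 0.30 ± 0.08 on casein (adjusted p = 0.00238). With the random block these adjusted p were 0.136 and 0.0499. On average over the arrays, 5.9% of genes had a lower mean than Mapk13, and no detection calls were made. Mapk12 (p38 gamma, abundant in striated muscle) differed by -0.09 ± 0.05 on soy and 0.02 ± 0.05 on casein, and neither passed.

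Mapk7 (ERK5), the kinase below Map2k5, lay between 7.31 and 7.67 on all 30 arrays and passed in no comparison. The atypical kinase Mapk6 (ERK3) did not pass for HCM on either diet but did for the difference between diets (-0.48 ± 0.19, adjusted p = 0.0367). Its lowest array was male soy wild-type replicate 2 (6.20), and without it Mapk6 passed on casein too (-0.24 ± 0.07, adjusted p = 0.00313).

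Scaffold proteins hold the kinases of a branch together. Mapk8ip1 (JIP1, the JNK scaffold) was 8.08 to 8.43 (median 8.33) in soy wild type and 8.57 to 8.67 (median 8.62) in soy HCM. On casein it was 8.22 to 8.74 (median 8.40) in wild type and 7.92 to 8.35 (median 8.18) in HCM. All HCM arrays lay above all wild-type arrays on soy, and the ranges overlapped on casein. Mapk8ip1 differed in HCM by 0.32 ± 0.07 on soy (adjusted p = 0.00229) and -0.27 ± 0.07 on casein (adjusted p = 0.00136). With the random block Mapk8ip1 passed on casein (adjusted p = 0.0241) and not on soy (0.0819).

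Mapk8ip3 (JIP3, which also links JNK to transport along microtubules) stood out through the casein wild-type arrays, which lay between 8.10 and 8.44 (median 8.26). The other arrays lay between 7.61 and 7.89 in soy wild type, 7.51 and 7.98 in soy HCM and 7.69 and 7.91 in casein HCM. No casein wild-type array overlapped any of these. HCM was lower on casein by 0.48 ± 0.06 (adjusted p = 2.27e-07) and differed by 0.04 ± 0.07 on soy (adjusted p = 0.653). Mapkbp1, a JNK-binding protein, differed by 0.03 ± 0.06 on soy and -0.03 ± 0.06 on casein.

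The substrate kinases Mapkapk2 (MK2, the main effector kinase of p38) and Mapkapk5 (MK5) differed in direction. Mapkapk2 was lower in HCM on casein by 0.17 ± 0.06 (adjusted p = 0.0131) and differed by 0.12 ± 0.06 on soy (adjusted p = 0.136). Mapkapk5 was 7.21 to 7.87 (median 7.40) in soy wild type and 7.02 to 7.32 (median 7.13) in soy HCM. On casein it was 7.45 to 7.89 (median 7.72) in wild type and 7.81 to 8.11 (median 7.90) in HCM. The ranges overlapped on each diet, with HCM mostly below wild type on soy and above it on casein (-0.27 ± 0.08, adjusted p = 0.0114, and 0.21 ± 0.07, adjusted p = 0.0145). The call on soy was lost with the random block (adjusted p = 0.204).

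Of the 9 dual-specificity phosphatases, each by the probe set that stands for it, Dusp6 and Dusp11 were higher in HCM on average and the other 7 did not pass. Dusp6 was 5.79 to 7.18 (median 6.57) in soy wild type, 6.28 to 6.95 (median 6.88) in soy HCM, 5.67 to 6.68 (median 6.40) in casein wild type and 6.48 to 7.09 (median 6.71) in casein HCM. Wild-type arrays were widely spread and the ranges overlapped on both diets. Dusp6 was higher in HCM on casein by 0.42 ± 0.14 (adjusted p = 0.0135, but 0.12 with the random block) and differed by 0.21 ± 0.15 on soy (adjusted p = 0.319). Dusp1 (MKP-1, an early-response phosphatase of JNK and p38) was 7.14 to 8.50 (median 8.27) in soy wild type, 8.27 to 8.52 (median 8.36) in soy HCM, 7.81 to 8.68 (median 8.25) in casein wild type and 8.05 to 8.78 (median 8.45) in casein HCM. These ranges overlapped, and no comparison of Dusp1 passed the test (HCM 0.23 ± 0.15 on soy and 0.17 ± 0.13 on casein).

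Dusp8 and Dusp16 act mainly on JNK and p38. Dusp8 was 5.50 to 5.84 (median 5.74) in soy wild type and 5.90 to 6.16 (median 5.96) in soy HCM. On casein it was 5.58 to 6.06 (median 5.71) in wild type and 5.32 to 5.65 (median 5.44) in HCM. HCM arrays lay above all wild-type arrays on soy and were mostly the lower ones on casein. The effects were 0.29 ± 0.08 on soy (adjusted p = 0.00689, but 0.152 with the random block) and -0.33 ± 0.07 on casein (adjusted p = 0.000359). The other Dusp8 probe set gave 0.501 on soy (adjusted p = 8.03e-05 over all probe sets) and -0.0146 on casein (0.887). Averaged over diets, that probe set was higher in HCM by 0.243 (0.00129). Dusp16 differed between diets in the same direction as Dusp8 (-0.37 ± 0.11, adjusted p = 0.00583).

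Promoter sequences were searched because several phosphatase genes are transcribed in response to the cascade's own targets. RefSeq windows of 300 bases (250 before the transcript start and 50 after) existed for 34 of the 40 genes, 44 windows in all. The palindromic cyclic-AMP response element TGACGTCA was in 3 of 44 windows (6.82%), those of Dusp1, Dusp8 and Mapk10, beside 588 of 32851 windows of all genes (1.79%). The pattern TGANTCA, a loose form of the AP-1 element with any base at N, was searched on both strands. It was in 1 of 44 (2.27%, Map2k6, where it reads TGATTCA) beside 7.81% of all windows, and the CArG box in none beside 1.63%. The 3 windows with TGACGTCA are shown from 5′ to 3′ on the gene's strand in GRCm38.p6, with the element in capitals. The Dusp8 window, chr7:142095235-142095534 on the minus strand, holds the element in 2 places, the first at position -107 from the start. The Dusp1 window is chr17:26508423-26508722 on the minus strand, with the element at position -143. The Mapk10 window is chr5:103211285-103211584 on the minus strand, with the element at position -29. Levels of these genes did not run in parallel: the HCM effect differed between diets by -0.61 for Dusp8, by 0.22 for Mapk10 and by -0.06 for Dusp1, the last not past the test (adjusted p = 0.831).
Dusp8: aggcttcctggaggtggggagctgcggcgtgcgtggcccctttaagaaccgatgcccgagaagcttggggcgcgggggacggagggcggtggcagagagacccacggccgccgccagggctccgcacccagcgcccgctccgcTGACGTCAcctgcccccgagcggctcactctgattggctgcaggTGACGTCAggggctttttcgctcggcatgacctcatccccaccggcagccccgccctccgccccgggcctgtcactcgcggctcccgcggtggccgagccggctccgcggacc
Dusp1: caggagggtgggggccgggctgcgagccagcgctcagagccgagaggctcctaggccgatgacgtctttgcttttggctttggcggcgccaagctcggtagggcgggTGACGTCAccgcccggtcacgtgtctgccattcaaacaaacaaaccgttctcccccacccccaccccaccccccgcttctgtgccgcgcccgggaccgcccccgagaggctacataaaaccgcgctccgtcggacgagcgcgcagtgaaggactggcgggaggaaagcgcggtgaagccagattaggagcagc
Mapk10: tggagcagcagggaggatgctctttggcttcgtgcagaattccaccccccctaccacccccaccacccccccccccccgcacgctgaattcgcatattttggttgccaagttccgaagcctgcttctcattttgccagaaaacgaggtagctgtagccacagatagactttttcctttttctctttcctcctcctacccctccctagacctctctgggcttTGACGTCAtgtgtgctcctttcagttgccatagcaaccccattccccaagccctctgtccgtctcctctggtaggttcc

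Of the other phosphatases, Dusp11 was higher in HCM on casein by 0.29 ± 0.06 (adjusted p = 0.000426) and differed by -0.02 ± 0.07 on soy. Dusp19, a phosphatase that binds JNK pathway kinases, was 6.41 to 6.75 (median 6.69) in casein HCM and 6.05 to 6.62 (median 6.17) in casein wild type, a difference of 0.37 ± 0.09 (adjusted p = 0.0016). Dusp19 on soy differed by -0.03 ± 0.10. Dusp9 was lower in HCM on casein by 0.16 ± 0.07 (adjusted p = 0.0436). Dusp2 and Dusp12 passed in no comparison of HCM with wild type.

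Because the casein wild-type arrays fell into 2 sets, each set was compared with casein HCM on its own. The sets have diet and genotype in common, and 4 of 40 cascade genes passed between them (10%, beside 12.6% of all genes). Higher in set A were 2 genes (beside 7.65%), Map2k4 (0.22) and Mapk8ip1 (0.30), and lower were 2 (beside 4.94%), Map2k5 (-0.25) and Mapk14 (-0.43). Added quantile normalization gave 2 higher and 3 lower, and centring gave 1 and 3. Of the 24 genes that passed on casein, 16 passed with the same sign against set A alone, 16 against set B alone and 9 against both. The 9 were Map3k6, Mapk13 and Dusp11, which were higher in HCM, and Map3k1, Map3k5, Map4k1, Mapk8ip3, Mapk14 and Dusp8, which were lower. Over the 40 genes, 7 had effects of opposite sign against A and B. Mapk8 passed against A (-0.45, adjusted p = 0.00261) and did not pass against B. Dusp6 likewise passed against A alone (0.56, adjusted p = 0.00787).

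**Figure D4:**
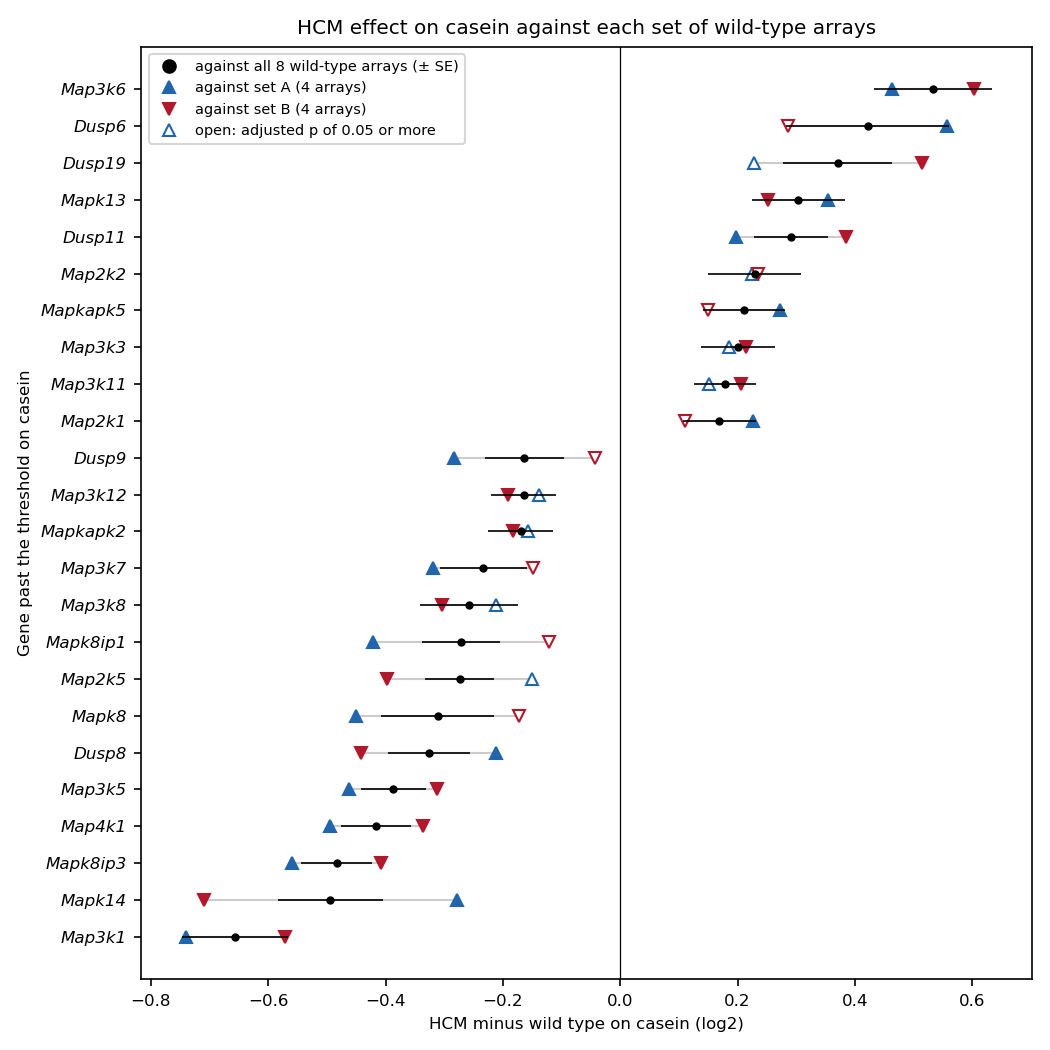
HCM minus wild type on casein (log2) for the 24 genes that passed, against all 8 casein wild-type arrays (black points, ± SE), against set A alone (blue upward triangles) and against set B alone (red downward triangles); open triangles did not pass. The 9 genes with both triangles filled include Map3k1, Map3k6 and Mapk8ip3.

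Probe sets of the same gene often disagreed, which bears on which genes can be read as changed. Of the 17 genes with several probe sets, all probe sets of Dusp8 alone passed in the same direction for the difference between diets (-0.61 and -0.52). For Map3k1, Map3k7, Map4k4 and Mapk8ip1, probe sets passed in opposite directions. Map3k1 gave -1.21 and -0.57 by 2 probe sets and 0.45 by the third. Map3k7 gave -0.50 and 0.30, and Mapk8ip1 gave -0.59 and 0.42. For another 9 genes some probe sets passed and others did not, and for 3 none passed. Mapk8 gave -0.61 by its brighter probe set (mean level 7.063) and 0.01 by the dimmer one (3.713). Dusp6 on casein was 0.42 by the brighter probe set (6.591) and -0.20 by the dimmer (4.115). Probe sets can lie in different exons or ends of a transcript, and here the files give no probe positions.

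**Figure D5:**
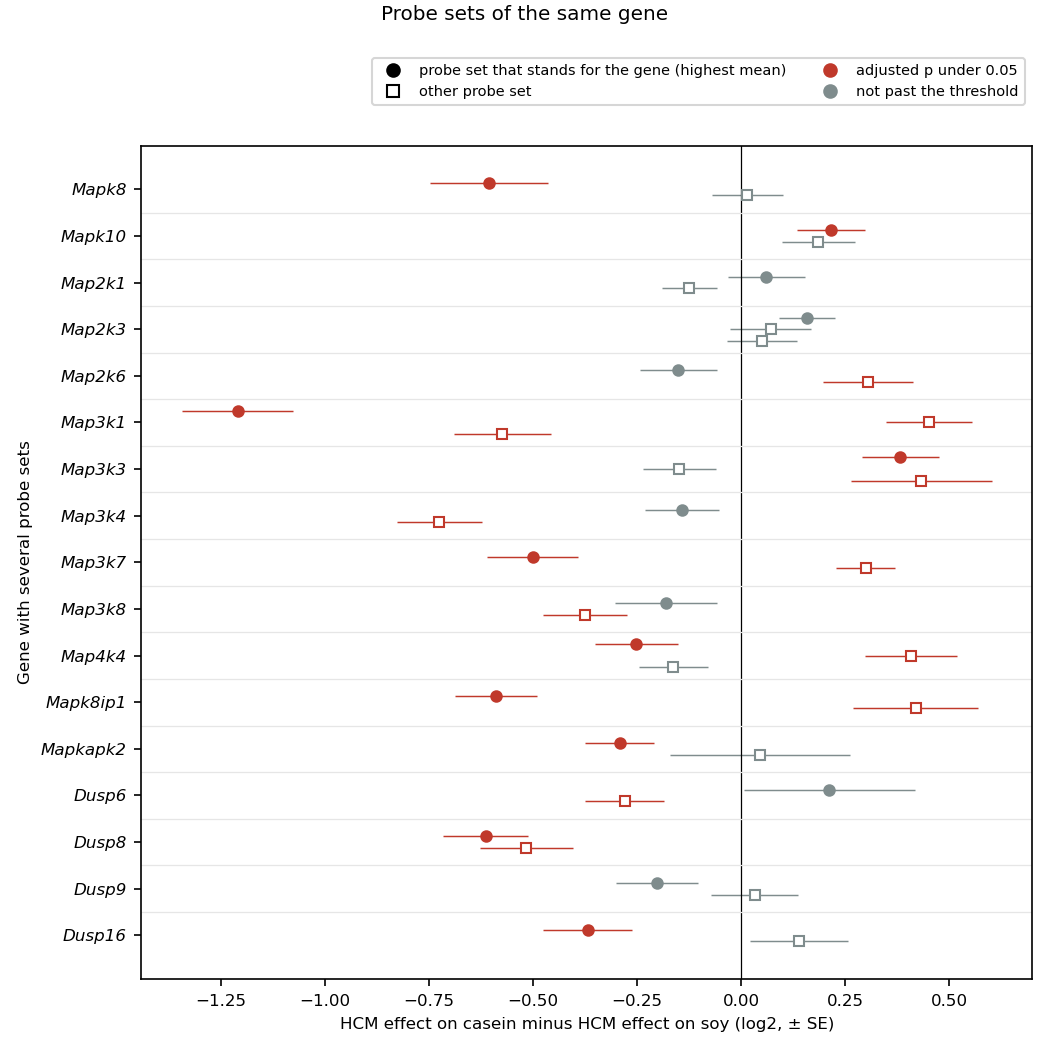
Difference between diets in the HCM effect (casein less soy, log2, ± SE) for each probe set of the 17 genes with several; filled circles are the probe sets that stand for the gene, open squares the others, and red marks those past the test. Dusp8 has both probe sets red on the same side of 0, while Map3k1, Map3k7, Map4k4 and Mapk8ip1 have red probe sets on both sides.

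Diet was compared next. Averaged over genotype and sex, 20 of 40 cascade genes passed (50%, beside 62.9% of all genes). On casein 6 were higher (beside 30.9%) and 14 lower (beside 32%), and centring each array on its median gave 8 and 11. Mapk9 was lower on casein by 0.58 ± 0.05 (adjusted p = 1.57e-10), and no casein array reached the level of any soy array. Also lower were Mapk8 (by 0.33 ± 0.07), Map3k7 (by 0.28 ± 0.05), the lymphoid phosphatase Dusp2 (by 0.27 ± 0.04), Map3k1 (by 0.25 ± 0.07) and Map4k4 (by 0.24 ± 0.05). Both other probe sets of Map4k4 passed as higher on casein (0.23 and 0.184). Those of Map3k1 passed in opposite directions (-0.444 and 0.465). Some of these averages join unlike effects in the 2 genotypes. Map3k1 was higher on casein in wild type (0.353) and lower in HCM (-0.855), both past the test. In wild type and HCM, Mapk8 differed by -0.03 and -0.63, Map3k7 by -0.03 and -0.53, and Map4k4 by -0.115 and -0.367. Dusp2 differed by -0.27 in each. Higher on casein were Mapkapk5 (by 0.52 ± 0.05, adjusted p = 1.13e-09), Dusp11 (by 0.45 ± 0.05), Mapk13 (by 0.26 ± 0.06), Mapk8ip3 (by 0.25 ± 0.04), Map2k1 (by 0.14 ± 0.05) and Map2k3 (by 0.12 ± 0.03). Of these, Map2k3 turned to -0.088 with added quantile normalization. By genotype, Mapk13 differed by -0.07 in wild type and 0.58 in HCM, and Mapk8ip3 by 0.515 in wild type and -0.0125 in HCM.

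Within wild type, 12 of 40 genes differed between diets (30%, beside 47%), with 6 higher on casein (beside 21.6%) and 6 lower (beside 25.4%). With added quantile normalization the split was 8 higher and 5 lower, with centring 12 and 4. A random block for the array set left 6 genes. Mapk8ip3 was higher on casein by 0.52 ± 0.06 (adjusted p = 1.04e-07) and Mapk9 was lower by 0.38 ± 0.07 (adjusted p = 6.29e-05), both without overlap between diets. Within HCM, 24 of 40 differed (60%, beside 62.1%), with 9 higher (beside 31.9%) and 15 lower (beside 30.1%). Map3k1 was lower on casein by 0.85 ± 0.10 (adjusted p = 1.94e-08), Mapk9 by 0.78 ± 0.08, Mapk8 by 0.63 ± 0.10 and Dusp8 by 0.54 ± 0.08. The other Map3k1 probe sets gave -0.731 and 0.691, both past the test. Mapkapk5 was higher on casein by 0.76 ± 0.08, Dusp11 by 0.61 ± 0.07, Mapk13 by 0.58 ± 0.09 and Map3k6 by 0.53 ± 0.11. For 20 of the 40 genes no casein HCM array overlapped a soy HCM array (6 above and 14 below), beside 37.9% of all genes (20.6% above and 17.2% below). The HCM and diet comparisons use the same arrays and are not independent of each other.

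No cascade gene passed the test between males and females. By limma, 0 of 40 passed for sex (beside 0.267% of all genes, 0.182% higher and 0.0848% lower in females), with 1 gene, Map3k4, at an unadjusted p under 0.05 (females lower by 0.11 ± 0.04, adjusted p = 0.489) and 744 of all genes. No gene passed for a difference of the HCM effect between the sexes (0 of 40, beside 0% of all genes; 2 cascade genes and 345 of all genes at an unadjusted p under 0.05). The same held for a difference of the diet effect, females less males (0 of 40, beside 0%; 9 and 1227 at an unadjusted p under 0.05). The cascade genes with the smallest p in that comparison were Map4k4 (-0.30 ± 0.10, adjusted p = 0.227), Map2k1 (-0.26 ± 0.09, adjusted p = 0.244) and Mapk14 (-0.35 ± 0.13, adjusted p = 0.263).

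Genes around the cascade were taken from lists of its inputs, brakes, downstream kinases and nuclear targets, of which 71 of 97 were measured. For HCM averaged over diets, 16 of 71 were higher (22.5%, beside 18.7% of all genes) and 13 lower (18.3%, beside 15.4%). Of 28 genes upstream (receptors, adaptors, Ras and Raf), 8 were higher and 3 lower. Rasa1, a Ras-inactivating protein, was higher by 0.34 ± 0.10, and Traf2, an adaptor of TNF receptors that leads to JNK, was lower by 0.33 ± 0.05. Of 15 negative regulators, 5 were higher and 1 lower, with the phosphatase Ppm1a (by 0.32 ± 0.09) and Gadd45b (by 0.32 ± 0.05), a stress-induced protein that binds Map3k4 and Map2k7, the highest. Of 24 nuclear targets, 3 were higher and 8 lower. Ddit3 (CHOP, a stress transcription factor that p38 phosphorylates) was higher by 0.52 ± 0.06, and Mef2a, a muscle transcription factor of the p38 and ERK5 branches, was higher by 0.33 ± 0.07. Of 4 downstream kinases, Rps6ka3 (RSK2) was lower by 0.09 ± 0.03. Several of these averages join unlike effects on soy and on casein. In that order, Mef2a differed by 0.879 and -0.221, Ddit3 by -0.139 and 1.17, Gadd45b by -0.108 and 0.74, and Rps6ka3 by 0.09 and -0.27. Mef2a passed on soy alone, and Ddit3, Gadd45b and Rps6ka3 passed on casein alone. Rasa1, Traf2 and Ppm1a had the same sign on both diets.

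These surrounding genes also differed by diet. On soy 15 of 71 were higher in HCM (21.1%, beside 12.3% of all genes) and 6 lower (8.45%, beside 12.7%). On casein 23 were higher (32.4%, beside 26.9%) and 20 lower (28.2%, beside 22.7%). The HCM effect differed between diets positively for 16 (22.5%, beside 25%) and negatively for 21 (29.6%, beside 20.1%). Averaged over genotype, 20 were higher on casein (28.2%, beside 30.9%) and 24 lower (33.8%, beside 32%). The nuclear targets Mef2c and Fosb were lower on casein by 0.58 ± 0.06 and 0.57 ± 0.04. Of the negative regulators Gadd45b (0.42 ± 0.05) and Gadd45g (0.34 ± 0.06) were higher. Upstream, the adaptor protein Ywhab (0.56 ± 0.06) and the PDGF receptor Pdgfrb (0.41 ± 0.04) were higher, and of the downstream kinases Mknk2 (MNK2) was higher by 0.35 ± 0.05 and Mknk1 (MNK1) lower by 0.15 ± 0.05. Within HCM alone the diet difference was larger for Mef2c (-0.978), Fosb (-0.763), Gadd45b (0.839), Gadd45g (0.578), Pdgfrb (0.556) and Mknk2 (0.391). It was smaller for Ywhab (0.273) and Mknk1 (-0.0235). These averages are therefore not equal effects in both genotypes. Pdgfrb is also a pericyte marker, and the mean level of the 7 smooth muscle and pericyte markers was 7.59 to 7.93 on casein HCM arrays against 7.04 to 7.48 on all others. Averaged over diets, cardiomyocyte markers were higher in HCM for 7 of 7 genes, fibroblast markers for 4 of 9 (2 lower) and endothelial markers for 4 of 9 (2 lower). Of all genes, 18.7% were higher and 15.4% lower. All 7 cardiomyocyte markers also passed as higher on soy. On casein Actc1, Mb, Myl2 and Tnni3 did, Myh6 and Tnnt2 did not pass, and Ryr2 was lower (-0.293, adjusted p = 0.0063). The endothelial marker Kdr differed by 1.02 on soy and -0.571 on casein, both past the test. The part of these markers in the cascade differences was not tested.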

How the data were processed

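The table of deposited values gives log2 expression for each probe set. Per the submitters' processing notes the authors used RMA and Affymetrix Expression Console, with versions not given in the sources used here. Of 12488 probe sets, 66 were controls; of the others, 10833 had 1 symbol, 396 several and 1193 none. A limma model (R 4.3.3, limma 3.58.1) with a mean for each of 8 groups was fitted to 30 arrays and all 8251 genes (22 residual and 6.16 prior degrees of freedom), and contrasts were taken over strata. The fit was tested on simulated data. The members, lists and rules were chosen with earlier results of these data known. Named genes were core kinases and phosphatases, the largest changes past the test in each comparison, up to 2 genes per list, and genes whose probe sets disagreed. Alternatives were the genes tested, a filter on the dimmest 40%, quantile normalization, centring, array weights, an intensity trend, the replicate number as a block, the array set as a random block (statmod 1.5.0, consensus correlation 0.167), set A or B alone, and leaving out each array. Replicate numbers did not pair samples: deviations of 99 same-numbered pairs correlated from -0.567 to 0.625 (mean -0.00209). All 40 genes were found in RefSeq's gene table; the protein sequences were not used here. Figures were drawn with matplotlib 3.10.9.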

Additional observations from a re-analysis of the deposited data

Results flagged for a closer look

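Of 162 groups of 4 arrays tested over 27 genes, 12 held an array whose gap to the nearest other array, divided by the range of the group, was above Dixon's critical value. By the level at which that value is set, chance gives such an array in about 1 in 20 groups. These were Dusp1 in male casein HCM replicate 1 (8.05, others 8.46 to 8.53), Dusp11 in female casein wild-type replicate 2 (6.31), Dusp2 in male soy wild-type replicate 3 (7.78), Map2k1 in male casein wild-type replicate 4 (6.67), Map3k1 in the same array (7.25), Map3k6 in male soy wild-type replicate 3 (6.52), Map4k1 in female soy wild-type replicate 1 (6.20), Map4k4 in female casein wild-type replicate 3 (6.64) and Mapk13 in male soy wild-type replicate 2 (4.74). Dusp19 had 3 of them, female soy wild-type replicate 3 (6.52), male casein HCM replicate 1 (6.41) and male casein wild-type replicate 1 (6.62).

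The HCM effect on casein differed from that on soy in 24 genes by the interaction contrast in limma. The difference was negative for Map3k1 (-1.21), Dusp8 (-0.61), Mapk8 (-0.61), Mapk14 (-0.59), Mapk8ip1 (-0.59), Mapk8ip3 (-0.53), Map3k7 (-0.50), Mapk6 (-0.48), Map3k5 (-0.43), Mapk9 (-0.39), Dusp16 (-0.37), Mapkapk2 (-0.29), Map2k4 (-0.28), Map4k1 (-0.27) and Map4k4 (-0.25). It was positive for Map3k6 (0.74), Mapk13 (0.65), Map2k2 (0.62), Mapkapk5 (0.48), Dusp19 (0.40), Map3k3 (0.38), Dusp11 (0.31), Map3k11 (0.29) and Mapk10 (0.22).

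Outside the genes, the Dap control RNA averaged 8.69 on the casein HCM arrays, above its level on all 22 other arrays.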

How the results depend on the processing

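When the array set entered as a random block, the number of cascade genes past the test fell to 3 for HCM on average, 1 for HCM on soy, 12 for HCM on casein, 6 for diet in wild type and 13 for the difference between diets; the set cannot be separated from genotype and diet in that fit. Leaving out each array in turn gave 7 to 11 for HCM on average, 8 to 13 on soy, 22 to 27 on casein, 20 to 24 for diet, 10 to 16 for diet in wild type, 23 to 25 for diet in HCM, 21 to 27 for the difference between diets, 2 to 4 between the casein wild-type sets and 0 for sex and for both differences by sex. HCM on soy fell to 8 without male soy HCM replicate 2 or female soy HCM replicate 3, and the sets to 2 without male casein wild-type replicate 4 or female casein wild-type replicate 1. With the replicate number as a block, the counts were 9, 11 and 25 for HCM on average, on soy and on casein, 21, 11 and 24 for diet on average, in wild type and in HCM, and 24 for the difference between diets; 8 of 30 arrays correlated best with an array of their own number. Counts of cascade genes under these settings, here and above, stand without the share of all genes. A change in them is not read as particular to the cascade. Of 77 named results, 47 kept direction and call under the alternatives other than probe sets. With quantile normalization Map2k3 reversed for diet on average (-0.088) and in HCM (-0.026). Other probe sets reversed Dusp6 (HCM on average -0.0603, on casein -0.2), Map2k1 (-0.0137 and -0.0756 likewise), Mapk8 (diet 0.0682, HCM on soy -0.0382, diet in HCM 0.0757, difference between diets 0.0149), Map3k7 (diet 0.0161), Map3k1 (diet 0.465, HCM on soy -0.069, HCM on casein 0.383, diet in wild type -0.157, diet in HCM 0.691, difference between diets 0.452), Map4k4 (diet 0.23 and 0.184) and Mapk8ip1 (HCM on soy -0.215, difference between diets 0.42). Of these 19 reversals, 8 passed the test themselves. The cause of the reversals was not tested. Signal over background could not be judged, as no detection calls were used here.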
